A study of Mus musculus with 9 samples.

Results

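Polycomb occupancy was examined at the cadherin and protocadherin genes, which encode calcium-dependent adhesion molecules, in mouse embryonic stem cells (mESCs) that lack EED and in wild type mESCs. The loci were taken from 2 lists of RING1B ChIP-seq peaks, 1 per genotype, as every peak whose nearest gene carried a name starting with Pcdh, or with Cdh followed by a digit. This gave 11 of 1810 peaks in *Eed-/-* mESCs and 24 of 2347 peaks in *Eed+/+* mESCs, thus 35 of 4157 peaks in all. Of these, 2 *Eed-/-* peaks and 10 *Eed+/+* peaks were assigned to the clustered protocadherins (Pcdha, Pcdhb and Pcdhg), while 9 *Eed-/-* and 14 *Eed+/+* peaks were assigned to genes that stand alone. In all, 16 non-clustered and 10 clustered genes had a peak in at least 1 list.

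The cells of both genotypes were untreated mESCs of strain C57BL/6, constitutively without Eed (*Eed-/-*) or wild type (*Eed+/+*), and the antibody recognized RING1B. The series labels 9 samples, of which 3 are *Eed-/-* RING1B, 1 is *Eed+/+* RING1B, 3 are *Eed+/+* input, and 2 are CBX7 samples that were not analysed here. The labels give the 3 *Eed-/-* samples replicate numbers, but the methods speak of sequencing lanes of 1 sample, and peaks were called once on their sum. No value below therefore has a replicate error, differences between the genotypes were not tested, and each is given beside the same quantity over all peaks. The depth of the *Eed-/-* immunoprecipitate was 4.18 times that of the *Eed+/+* one, and each deposited peak of either list held at least 101 tags. Expression was not analysed here.

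RING1B is the subunit of Polycomb repressive complex PRC1 that ubiquitylates histone H2A, and EED is required for PRC2 to methylate histone H3 at lysine 27. Classical cadherins join neighbouring cells by binding their own kind across the cell border and are tied to the actin cytoskeleton through catenins, and E-cadherin (*Cdh1*) is the main one in mESCs. Delta protocadherins are adhesion molecules best known from the nervous system. In the alpha and gamma clusters of protocadherins, many variable exons, each with its own promoter, are spliced to a few shared constant exons. The beta genes are annotated as separate genes. Sets of clustered isoforms give neurons an identity that lets them recognize their own branches. Most of these genes are used after mESCs differentiate, and developmental genes of this kind are common targets of Polycomb complexes at CpG-rich promoters.

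The sequence under several summits (the position of most tags in a peak) is shown, partly because the summits of the 2 genotypes did not always coincide. Each line gives 121 bases centred on a summit in mm9, read 5′ to 3′ along the strand of the gene, with the dinucleotide CG in capitals. The windows of *Pcdh10*, *Pcdh8* and *Pcdh7* lie within coding sequence, and that of *Cdh22* lies outside annotated exons.
Pcdh10, Eed-/- summit, chr3:45184311-45184431, + strand: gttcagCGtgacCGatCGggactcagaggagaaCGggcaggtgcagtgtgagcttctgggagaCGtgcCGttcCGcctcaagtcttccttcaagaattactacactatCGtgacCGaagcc
Pcdh10, Eed+/+ summit, chr3:45184955-45185075, + strand: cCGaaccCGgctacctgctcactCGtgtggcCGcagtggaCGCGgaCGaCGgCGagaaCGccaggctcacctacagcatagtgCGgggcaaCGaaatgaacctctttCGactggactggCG
Pcdh8, Eed-/- summit, chr14:80170574-80170694, - strand: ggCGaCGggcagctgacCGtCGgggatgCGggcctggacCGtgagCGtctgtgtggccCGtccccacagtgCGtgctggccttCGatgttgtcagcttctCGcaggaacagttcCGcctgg
Pcdh8, Eed+/+ summit, chr14:80170153-80170273, - strand: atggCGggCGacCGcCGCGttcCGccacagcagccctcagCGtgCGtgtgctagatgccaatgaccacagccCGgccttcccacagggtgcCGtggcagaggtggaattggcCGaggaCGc
Pcdh7, Eed+/+ summit, chr5:58110697-58110817, + strand: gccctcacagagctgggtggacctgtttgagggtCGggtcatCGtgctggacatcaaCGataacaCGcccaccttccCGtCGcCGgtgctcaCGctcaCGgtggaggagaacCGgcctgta
Cdh22, Eed+/+ summit, chr2:165059484-165059604, - strand: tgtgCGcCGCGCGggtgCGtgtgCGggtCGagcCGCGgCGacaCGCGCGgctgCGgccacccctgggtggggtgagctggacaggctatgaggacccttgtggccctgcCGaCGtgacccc

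These windows held 9 CG dinucleotides in *Eed-/-* and 14 in *Eed+/+* cells at *Pcdh10*, and 12 and 12 at *Pcdh8*. The *Pcdh7* window held 10 and the *Cdh22* window 16. Windows of the family that are not shown held as few as 5 in *Eed-/-* and 4 in *Eed+/+* cells. Searched in the same way for the 2 letters CG (the same on both strands), the summit windows of cadherin and protocadherin peaks held a median of 8 in *Eed-/-* cells (5 to 12, n = 11) and 10.5 in *Eed+/+* cells (4 to 16, n = 24). The median over all summits was 11 in either list, and 98.2% of all *Eed-/-* windows and 99.5% of all *Eed+/+* windows held at least 1 CG. The 250 bases upstream of the annotated start of *Cdh3*, which encodes P-cadherin, are shown because they lay inside a peak of *Eed-/-* cells and in none of *Eed+/+* cells.
Cdh3, upstream of the gene, chr8:109034541-109034790, + strand: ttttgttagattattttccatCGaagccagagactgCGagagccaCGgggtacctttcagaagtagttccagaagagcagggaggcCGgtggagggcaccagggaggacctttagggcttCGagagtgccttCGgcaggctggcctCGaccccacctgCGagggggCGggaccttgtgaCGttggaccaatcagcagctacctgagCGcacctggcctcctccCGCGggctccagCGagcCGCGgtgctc
This window held 16 CG dinucleotides, against a median of 8 (quartiles 3 and 18) in the windows of 250 bases upstream of 22380 protein-coding genes, 92.5% of which held at least 1 CG. The same window of *Cdh7*, the other gene with a peak in *Eed-/-* cells only, held 6, below that median. It lay only partly inside the *Cdh7* peak.

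Of 93 mouse genes whose names meet the rule, 9 had a peak in both genotypes, 2 in *Eed-/-* cells only, 15 in *Eed+/+* cells only and 67 in neither. The share with a peak was 11.8% in *Eed-/-* cells, against 7.1% of all 21900 protein-coding RefSeq genes, and 25.8% in *Eed+/+* cells, against 8.55%. Non-clustered genes had a peak in 25.7% of cases in *Eed-/-* and 40% in *Eed+/+* cells, and clustered genes in 3.45% and 17.2%. Among type I classical cadherins, *Cdh2* (N-cadherin, of neural and mesenchymal cells) had a peak in both lists, *Cdh3* in *Eed-/-* cells only and *Cdh4* (R-cadherin, named after the retina) in *Eed+/+* cells only. *Cdh1*, the main cadherin of mESCs, had no peak in either list, nor had *Cdh15*. Among 13 type II cadherins, *Cdh11* (OB-cadherin, of mesenchymal cells) was bound in both genotypes, *Cdh7* in *Eed-/-* cells only, and *Cdh6*, *Cdh8* and *Cdh22* in *Eed+/+* cells only. Of 5 further cadherins, *Cdh23*, a component of the tip links of hair cells, had a peak in both lists and *Cdh13* (T-cadherin, which is held to the membrane by a lipid anchor) in *Eed+/+* cells only. Of the 10 delta protocadherins, *Pcdh1*, *Pcdh8*, *Pcdh10* and *Pcdh17* were bound in both genotypes, *Pcdh7* and *Pcdh19* in *Eed+/+* cells only, and 4 in neither.

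Most cadherin and protocadherin peaks of *Eed-/-* cells lay on *Eed+/+* peaks, whereas a minority of the *Eed+/+* peaks had an *Eed-/-* counterpart. With an overlap of at least 1 bp, 9 of 11 *Eed-/-* peaks (81.8%, exact 95% interval 48.2 to 97.7%) were overlapped by an *Eed+/+* peak, against 73.1% of all *Eed-/-* peaks. In the other direction 9 of 24 *Eed+/+* peaks (37.5%, 18.8 to 59.4%) were overlapped by an *Eed-/-* peak, against 53.1% of all *Eed+/+* peaks. Both background values lie within these intervals, which cover counting error only and treat peaks as independent. Of the 24 *Eed+/+* peaks, 7 lay within 47900 bp of the gamma cluster. Each gene had at most 1 peak per list, so that the shares by gene name were the same. Over all gene names the shares were 74.3% in *Eed-/-* cells and 61.5% in *Eed+/+* cells. A name found in both lists counted without any overlap of peaks, so these shares are not set against the intervals. Between the classes, both clustered and 7 of 9 non-clustered *Eed-/-* peaks were overlapped, and in the *Eed+/+* list 2 of 10 clustered peaks (20%, 2.52 to 55.6%) and 7 of 14 non-clustered peaks (50%, 23.0 to 77.0%) had an *Eed-/-* counterpart, with intervals that overlap. Of the *Eed-/-* peaks, 4 of 11 had an FDR of 1% or less, against 24.1% of that list, whereas all 24 *Eed+/+* peaks did, against 99.9%.

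At the 9 shared sites the RING1B level, taken as tags per kb of peak per 1000000 mapped tags, was lower in *Eed-/-* cells. The ratio of the *Eed-/-* to the *Eed+/+* level had a median of 0.197 (0.159 to 0.273), against 0.225 (quartiles 0.179 and 0.303) over all 1247 pairs of peaks. All 9 ratios were below 1, as were 100% of all pairs, so this direction was shared by every pair in the lists. It reversed when levels were scaled to the tags inside all peaks of a list, with a median of 1.39 at the 9 sites and 1.58 over all pairs, because peaks held 0.625% of the mapped tags in *Eed-/-* cells and 4.40% in *Eed+/+* cells. As a ratio of fold enrichments the median was 0.149 at the 9 sites (0.114 to 0.544), against 0.248 (quartiles 0.178 and 0.361) over all pairs.

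**Figure D1:**
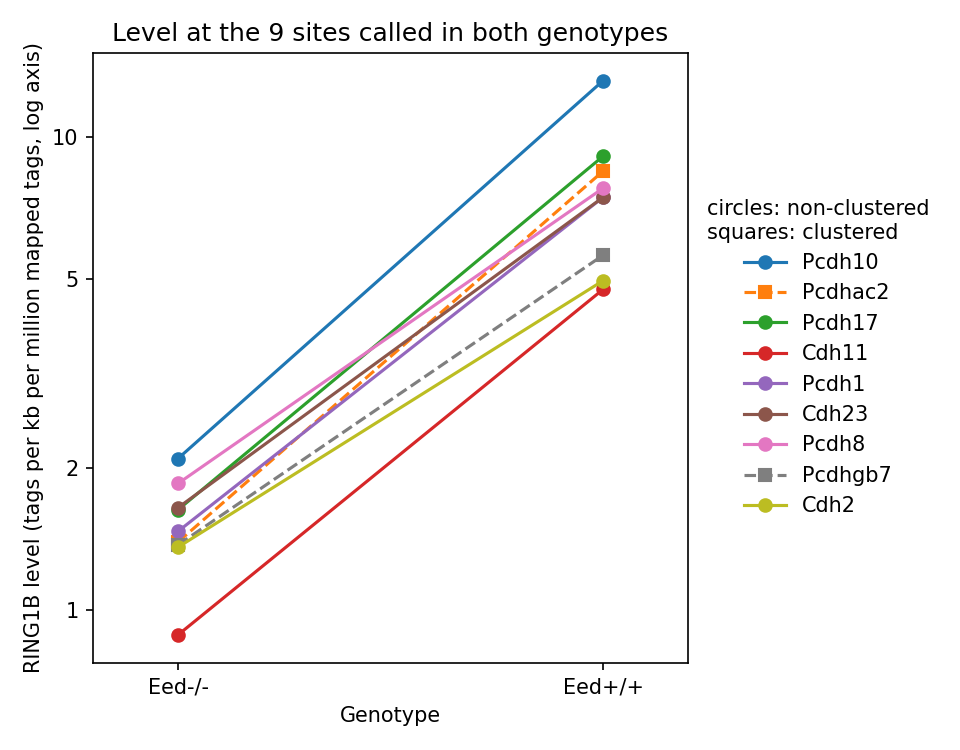
RING1B level (tags per kb of peak per 1000000 mapped tags, log axis) in *Eed-/-* and *Eed+/+* mESCs at the 9 cadherin and protocadherin sites with a peak in both lists. Each line joins the peaks of 1 gene. Levels lie between 0.886 and 2.09 in *Eed-/-* cells and between 4.76 and 13.1 in *Eed+/+* cells, without overlap. Over all peaks the quartiles are also apart, at 1.17 and 1.52 in *Eed-/-* and 3.65 and 6.62 in *Eed+/+* cells. The full ranges of the lists overlap, at 0.849 to 7.01 and 1.78 to 22.4.

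*Pcdh10*, a delta protocadherin of growing axons, had the highest level of the family in both genotypes. Its *Eed-/-* peak on chromosome 3 (45183097 to 45185981, + strand, mm9 as all positions here) held 424 tags at a level of 2.09 and a fold enrichment over background of 5.78, and its *Eed+/+* peak (45179926 to 45186296) held 1407 tags at a level of 13.1 and a fold enrichment of 44.8. These levels were at percentile 96.5 of the *Eed-/-* list and 99.0 of the *Eed+/+* list. The ratio of 0.159 was the lowest of the 9 sites. The *Eed-/-* peak was 2885 bp wide, which was 45.3% of the *Eed+/+* width of 6371 bp, and it began 778 bp downstream of the RefSeq start site, whereas the *Eed+/+* peak covered that site.

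*Pcdh8* (paraxial protocadherin, of forming somites and synapses) and *Pcdh17*, a delta protocadherin of the brain, both lie on chromosome 14. At *Pcdh8* the *Eed-/-* peak (80167348 to 80171388, - strand) had 526 tags and a level of 1.85, the *Eed+/+* peak (80166973 to 80172885) had 774 tags and a level of 7.78, and the ratio was 0.238. The summits lay 472 bp and 893 bp downstream of the start in *Eed-/-* and *Eed+/+* cells. At *Pcdh17* the *Eed-/-* peak (84845094 to 84848646, + strand) had 407 tags and a level of 1.63, the *Eed+/+* peak (84842803 to 84848727) had 906 tags and a level of 9.09, and the ratio was 0.179. Here the *Eed-/-* summit lay 2523 bp into the gene and the *Eed+/+* summit 288 bp, the largest shift among the 9 pairs at 2235 bp, against a median distance of 254 bp in these pairs and 97 bp in all pairs. Fold enrichment was 4.09 in *Eed-/-* and 27.4 in *Eed+/+* cells at *Pcdh8*, and 3.70 and 25.1 at *Pcdh17*. Both genes thus stood at or below percentile 19.8 for fold enrichment in the *Eed-/-* list, although their levels were at percentiles 92.2 and 83.1 of that list.

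*Pcdh1*, a delta protocadherin of epithelia and brain, and *Cdh2* lie on chromosome 18. The *Eed-/-* peak of *Pcdh1* (38368925 to 38372900, - strand) had 410 tags, a level of 1.47 and a fold enrichment of 3.69, and the *Eed+/+* peak (38368561 to 38373831) had 660 tags, a level of 7.45 and a fold enrichment of 27.4, for a level ratio of 0.197. Both lay largely upstream of the RefSeq start, with summits 43 bp apart, but covered a start site of the GENCODE annotation. *Cdh2* was the exception within the family by fold enrichment, while its *Eed-/-* level was at percentile 55.9 of that list. Its *Eed-/-* peak (16965149 to 16968154, - strand) had 287 tags, a level of 1.36 and a fold enrichment of 9.05, which ranked 49 of 1810, and its *Eed+/+* peak (16965219 to 16968549) had 278 tags, a level of 4.96 and a fold enrichment of 16.6, close to the list median of 16.2. The level ratio of 0.273 was the highest of the 9 sites, and 67.8% of all pairs had a ratio at or below it. By fold enrichment its ratio was 0.544, and 91.5% of all pairs lay at or below that value.

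*Cdh11* on chromosome 8 had the lowest level of the 9 sites in both genotypes. The *Eed-/-* peak (105307548 to 105309858, - strand) had 144 tags, a level of 0.886 and a fold enrichment of 4.96, and the *Eed+/+* peak (105307348 to 105311560) had 337 tags, a level of 4.76 and a fold enrichment of 21.6, with a ratio of 0.186. The *Eed-/-* level was at percentile 0.497 of its list, near the lowest level of any *Eed-/-* peak (0.849). At *Cdh23* on chromosome 10 the *Eed-/-* peak (60147717 to 60151130, - strand) had 395 tags, a level of 1.64 and a fold enrichment of 3.86, and the *Eed+/+* peak (60147933 to 60151949) had 503 tags, a level of 7.45 and a fold enrichment of 20.6, with a ratio of 0.221. These peaks lay far inside the gene by RefSeq, with summits 9329 bp and 9463 bp downstream of that start in *Eed-/-* and *Eed+/+* cells. Both covered another annotated start site of *Cdh23*.

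The clustered genes with peaks in both lists were *Pcdhac2* and *Pcdhgb7*. *Pcdhac2* is a C-type gene at the 3′ end of the alpha cluster. Its *Eed-/-* peak (chromosome 18, 37302908 to 37305256, + strand) had 230 tags, a level of 1.39 and a fold enrichment of 4.73, and its *Eed+/+* peak (37302652 to 37305309) had 378 tags, a level of 8.46 and a fold enrichment of 41.4, rank 142 of 2347. The level ratio was 0.165. At *Pcdhgb7* the *Eed-/-* peak (37912258 to 37913966) had 165 tags, a level of 1.37 and a fold enrichment of 4.87, and the *Eed+/+* peak (37911117 to 37914186) had 290 tags, a level of 5.62 and a fold enrichment of 23.4, with a ratio of 0.244. In *Eed-/-* cells these clustered peaks therefore had nearly equal levels, while in *Eed+/+* cells *Pcdhac2* stood well above *Pcdhgb7*.

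**Figure D2:**
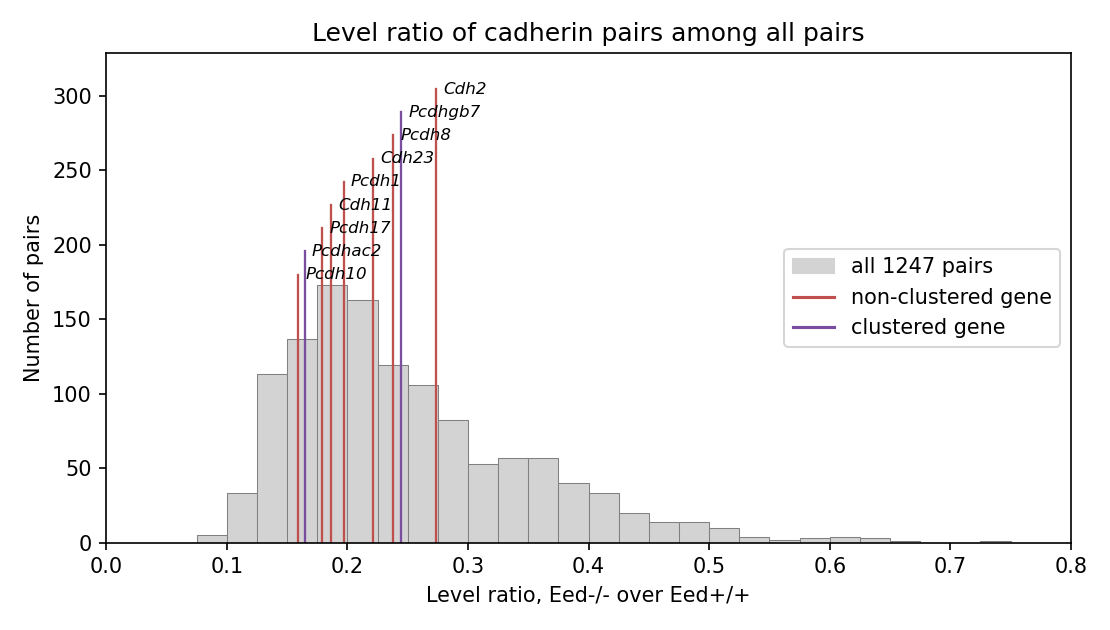
Number of peak pairs (y axis) by the ratio of the *Eed-/-* to the *Eed+/+* RING1B level (x axis) for all 1247 pairs (bars), with the ratio of each of the 9 cadherin and protocadherin pairs as a named line. The 9 ratios span 0.159 (*Pcdh10*) to 0.273 (*Cdh2*), around the median of all pairs of 0.225.

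The shared *Eed-/-* peaks were narrower than their counterparts. The *Eed-/-* width was 68.3% of the *Eed+/+* width in the median pair (45.3 to 90.2%), against 83.3% over all pairs. In 7 of the 9 pairs the *Eed-/-* peak lay wholly inside the *Eed+/+* peak, against 57.4% of all pairs, the exceptions being *Cdh2* and *Cdh23*. Where the *Eed-/-* peak was markedly narrower, as at *Pcdh10*, *Cdh11*, *Pcdhgb7* and *Pcdh17*, the part it lacked was mainly at the upstream end of the *Eed+/+* peak.

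**Figure D3:**
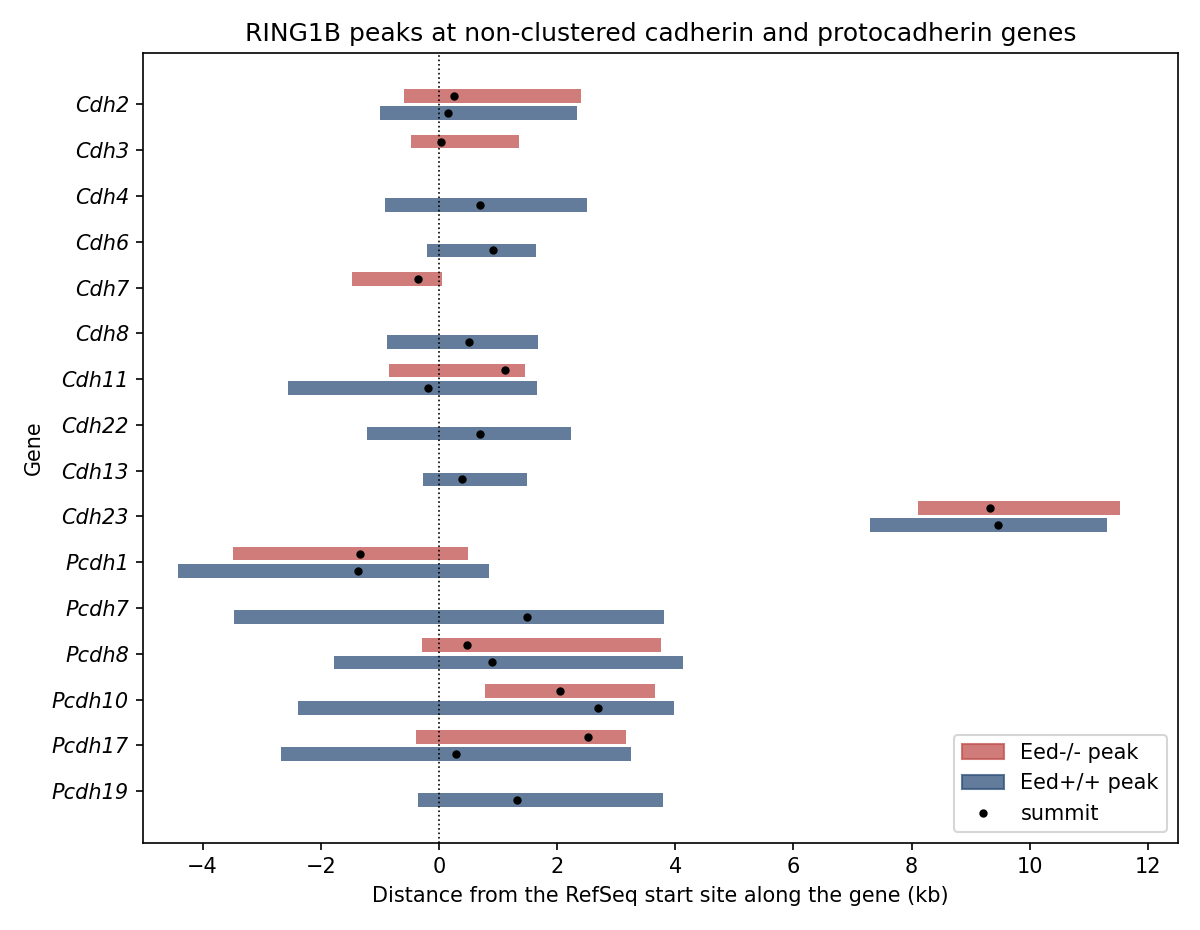
Extent of each RING1B peak (bars) and its summit (points) at the 16 non-clustered genes, as distance in kb along the gene from the RefSeq start site (dotted line), with the *Eed-/-* peak above the *Eed+/+* peak. The *Eed-/-* peaks of *Pcdh10*, *Pcdh17* and *Cdh11* (2885, 3553 and 2311 bp) end close to the downstream edge of the *Eed+/+* peaks (6371, 5925 and 4213 bp) but begin further downstream.

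Peaks in *Eed-/-* cells alone were found at *Cdh7*, a type II cadherin, and at *Cdh3*. The *Cdh7* peak (chromosome 1, 111878850 to 111880363, + strand) had 106 tags, a level of 0.995, a fold enrichment of 4.45 and an FDR of 1.65%, and it lay almost wholly upstream of the RefSeq start with a summit in an annotated UTR. The nearest *Eed+/+* peak was 4200050 bp away. The *Cdh3* peak (chromosome 8, 109034335 to 109036174, + strand) had 184 tags, a level of 1.42, a fold enrichment of 3.66 and an FDR of 1.51%, with its summit 33 bp from the start site, and the nearest *Eed+/+* peak was 172481 bp away. In the *Eed-/-* list *Cdh7* was at percentile 34.8 for fold enrichment and 4.70 for level, and *Cdh3* at percentile 7.51 for fold enrichment but 64.6 for level. The shared peaks of *Pcdh1* and *Pcdh17* had similarly low percentiles for fold enrichment, of 7.73 and 7.90. Scaled to the *Eed+/+* depth, the 11 *Eed-/-* peaks would hold 25.3 to 126 tags, and 2 of them (*Pcdh8* and *Pcdh10*) over 100, so the absence of an *Eed+/+* call at *Cdh7* and *Cdh3* does not show that their level differed between the genotypes.

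Of the 15 peaks in *Eed+/+* cells alone, the 6 of highest fold enrichment were in the range of the shared peaks by that measure. *Pcdh7*, a delta protocadherin, had the widest peak of the family (chromosome 5, 58105793 to 58113061, + strand, 7269 bp) with 1363 tags, a level of 11.2 and a fold enrichment of 35.5. Its level was at percentile 96.8 of the *Eed+/+* list and the nearest *Eed-/-* peak was 4500255 bp away. *Pcdh19*, an X-linked gene mutated in a human epilepsy, had 319 tags over 4139 bp (chromosome X, 130219742 to 130223880, - strand), a level of 4.58 and a fold enrichment of 31.4. *Cdh22*, a type II cadherin, had 542 tags on chromosome 2 (165058003 to 165061451, - strand), a level of 9.35 and a fold enrichment of 26.4. At these 3 genes a peak of high fold enrichment in *Eed+/+* cells had no *Eed-/-* call.

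*Pcdhgb6* had 245 tags (chromosome 18, 37901469 to 37905343, + strand), a level of 3.76 and a fold enrichment of 24.9. *Cdh8*, a type II cadherin of the brain, had 290 tags on chromosome 8 (101938683 to 101941231, - strand), a level of 6.77 and a fold enrichment of 21.7. *Cdh4* had 270 tags on chromosome 2 (179176263 to 179179688, + strand), a level of 4.69 and a fold enrichment of 19.9. The other 9 peaks, at *Cdh6*, *Cdh13*, *Pcdha5*, *Pcdha10*, *Pcdhgb4*, *Pcdhgb5*, *Pcdhga10*, *Pcdhga11* and *Pcdhga12*, had lower fold enrichments of 9.28 to 15.5, with 110 to 186 tags and levels of 3.25 to 5.10. Over all 15 the median level was 3.82, against 7.45 for the 9 *Eed+/+* peaks with an *Eed-/-* counterpart and 4.80 for the whole list. For non-clustered peaks alone the medians were 4.69 (3.79 to 11.2) without and 7.45 (4.76 to 13.1) with a counterpart, with ranges that overlap. The same split over the whole list is not given here. The lists hold only peaks that passed the FDR and tag minimum, so the lack of an *Eed-/-* call at these 15 genes does not show that RING1B was absent.

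The clustered protocadherins were bound unevenly. In the alpha cluster (chromosome 18, 37089939 to 37347311) 1 of 14 genes had a peak in *Eed-/-* cells and 3 had one in *Eed+/+* cells, at *Pcdha5*, *Pcdha10* and *Pcdhac2*. None of the 22 genes of the beta cluster (37424652 to 37681073) had a peak in either genotype, and no peak of any gene lay in that interval. In the gamma cluster (37833989 to 38001527) 1 of 22 genes had a peak in *Eed-/-* cells and 7 had one in *Eed+/+* cells. All 7 fell among the 10 consecutive genes from *Pcdhgb4* to *Pcdhga12*, while the 9 genes before them and the 3 C-type genes after them (*Pcdhgc3*, *Pcdhgc4* and *Pcdhgc5*) had none. Within that stretch *Pcdhga8*, *Pcdhga9* and *Pcdhgb8* had none. The 7 peaks covered 43.0% of the 47900 bp from the start of the first to the end of the last, and the closest neighbours, *Pcdhgb7* and *Pcdhga11*, were separated by 1037 bp. The *Eed-/-* peak lay at *Pcdhgb7*, which had the highest *Eed+/+* level of the 7 (5.62, the others 3.25 to 3.82). By fold enrichment *Pcdhgb6*, without an *Eed-/-* peak, was higher in *Eed+/+* cells (24.9, against 23.4 at *Pcdhgb7*).

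**Figure D4:**
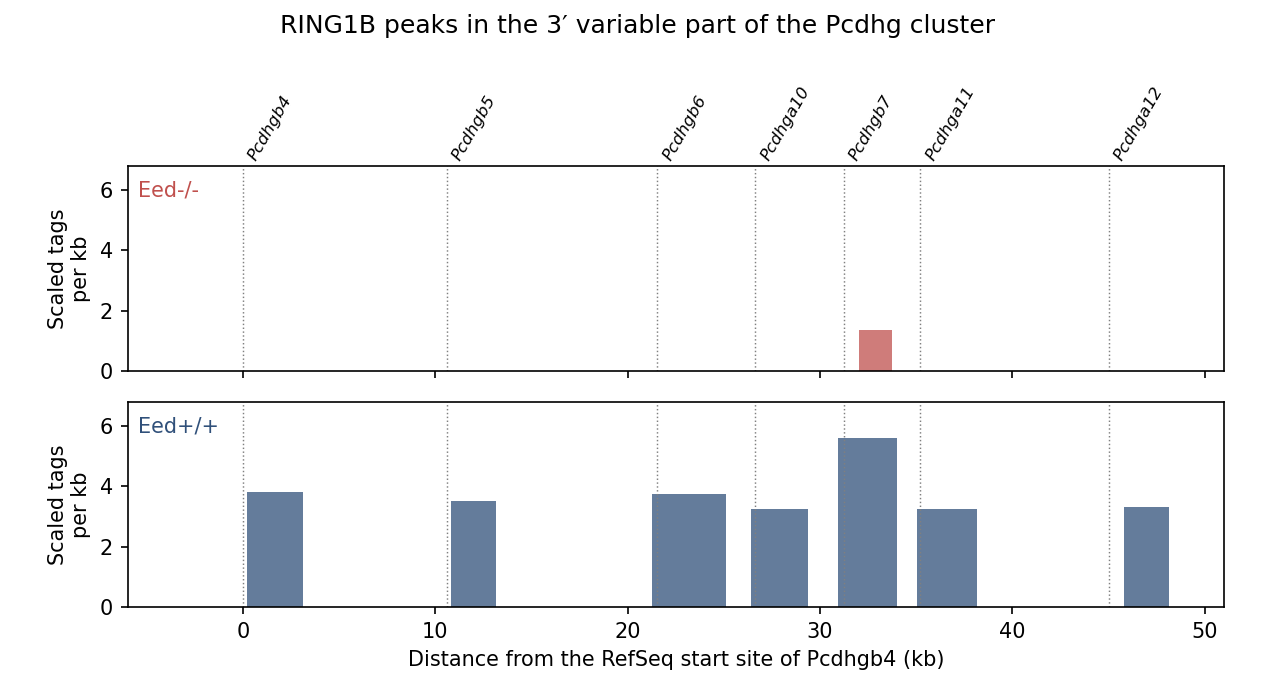
RING1B peaks in the stretch of the gamma cluster from *Pcdhgb4* to *Pcdhga12* in *Eed-/-* (upper) and *Eed+/+* mESCs (lower), with the distance from the *Pcdhgb4* start in kb on the x axis, the level in scaled tags per kb on the y axis, and dotted lines at the RefSeq starts of the 7 genes with a peak. A peak of level 1.37 at *Pcdhgb7* is the only one in *Eed-/-* cells, against 7 in *Eed+/+* cells, where *Pcdhgb7* is highest at 5.62.

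The variable exons and beta genes of these clusters resemble one another, and only tags with a unique position were mapped. The share of 32-base windows that occur once in the genome was 81.7 to 100% (median 89.2%) in the 10 clustered *Eed+/+* peaks and 97.1 to 100% in the 14 non-clustered ones. It was 76.3 to 100% (median 88.8%) over the 22 beta genes. Its part in the lower clustered levels and in the lack of beta peaks was not tested.

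In *Eed+/+* cells the clustered peaks were narrower, lower and less GC-rich than the non-clustered ones. Their median width was 2777.5 bp and their median level 3.65, against 4078 bp and 7.11 for the non-clustered peaks, and 2665 bp and 4.80 for the whole list. Fold enrichment was above the list median in 3 of 10 clustered peaks (*Pcdhac2*, *Pcdhgb6* and *Pcdhgb7*) and in 12 of 14 non-clustered peaks, all but *Cdh6* and *Cdh13*. GC content had a median of 51.6% in clustered and 58.4% in non-clustered peaks (58.3% in the list), while the observed to expected CpG ratio was nearly equal at 0.654 and 0.646 (0.601 in the list). The ranges of the classes overlapped for each of these measures. The 6 non-clustered protocadherins stood out in the description, with a median width of 5919 bp (4139 to 7269) and fold enrichments of 25.1 to 44.8, against 3378.5 bp (1762 to 4213) and 10.8 to 26.4 for the 8 Cdh genes. In *Eed-/-* cells that order of fold enrichment was not seen. The 4 protocadherins had 3.69 to 5.78 and the 5 Cdh genes 3.66 to 9.05, with *Cdh2* highest. The protocadherin peaks were still wider in the median (3764.5 against 2311 bp). Their median level was also higher, at 1.74 (1.47 to 2.09) against 1.36 (0.886 to 1.64), with 1.32 for the whole list. In *Eed+/+* cells it was 8.44 (4.58 to 13.1) against 4.86 (3.79 to 9.35), with 4.80 for the list. The ranges overlapped in both genotypes. The genes differ between the lists, with *Cdh3* and *Cdh7* in *Eed-/-* cells only.

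**Figure D5:**
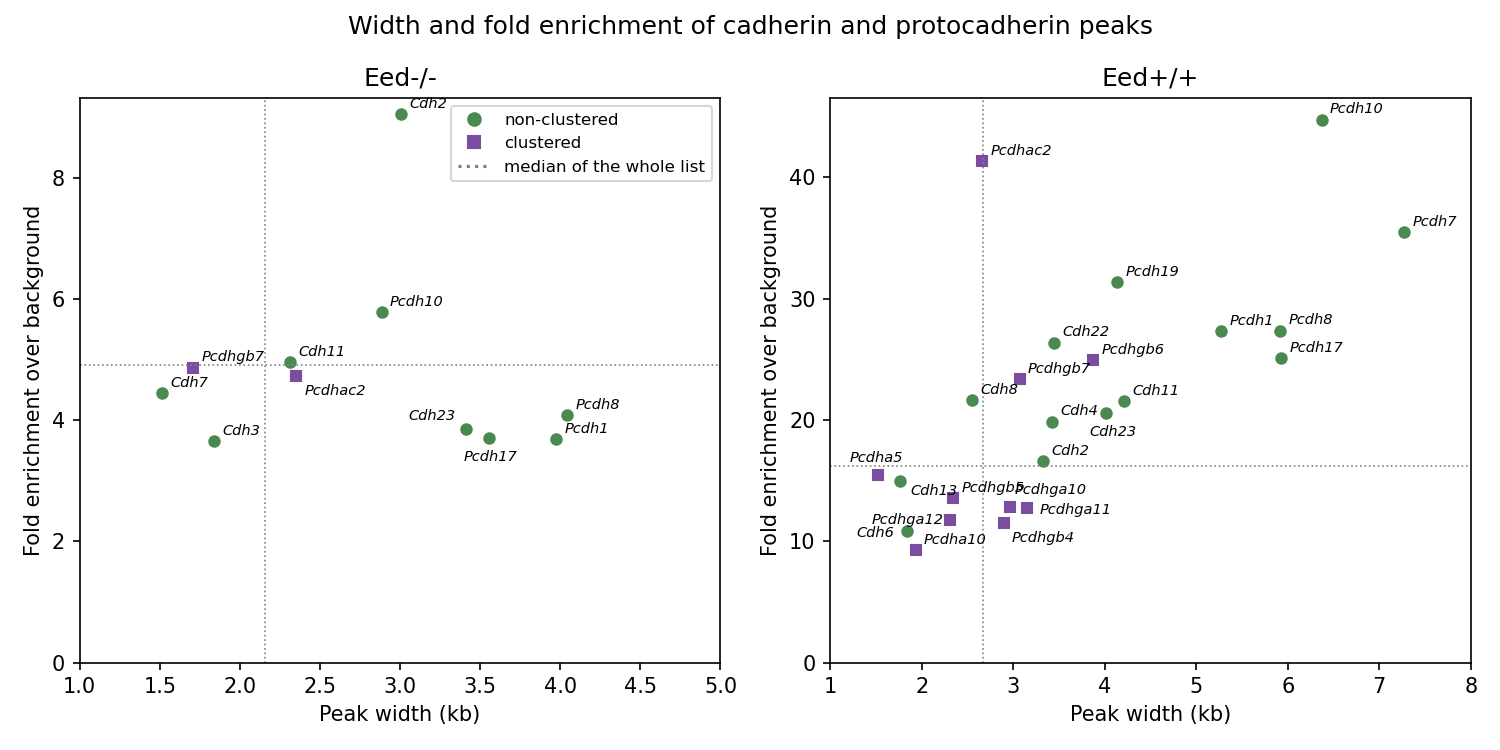
Peak width in kb (x axis) and fold enrichment over background (y axis, with a different scale in each panel) of the 11 *Eed-/-* peaks (left) and the 24 *Eed+/+* peaks (right), with the median of the whole list as dotted lines. In *Eed+/+* cells all 6 non-clustered protocadherins lie above 4 kb and above a fold enrichment of 25, while in *Eed-/-* cells *Cdh2* is highest at 9.05.

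Most peaks lay at start sites, as in the whole lists, and in *Eed+/+* cells the summits of most clustered peaks lay inside the gene. By their edge, 9 of 11 *Eed-/-* peaks (against 82.9% of that list) and 19 of 24 *Eed+/+* peaks (against 79.3%) lay within 1 kb of an annotated start site. By their centre, 7 of 11 *Eed-/-* peaks (against 73.5%) and 14 of 24 *Eed+/+* peaks (against 66.3%) did. The RefSeq start of the assigned gene was covered by 8 of 11 *Eed-/-* peaks (62.4% of the list) and 18 of 24 *Eed+/+* peaks (61.7% of the list). In *Eed+/+* cells this was 5 of 10 clustered and 13 of 14 non-clustered peaks, the exception being *Cdh23*. A summit over 500 bp downstream of the RefSeq start was found in 5 of 11 *Eed-/-* peaks (41.8% of the list) and 18 of 24 *Eed+/+* peaks (48.7% of the list). The *Eed+/+* count held 9 of 10 clustered peaks, at 651 to 1840 bp, and 9 of 14 non-clustered peaks, whereas the summit of *Pcdhac2* lay at 295 bp. The *Eed-/-* count held 1 of 2 clustered peaks, *Pcdhgb7* at 1516 bp, whereas the summit of *Pcdhac2* lay at 41 bp, and 4 of 9 non-clustered peaks. By the GENCODE annotation, counting any transcript there, *Eed-/-* summits lay in coding sequence at *Pcdh8*, *Pcdh10*, *Pcdh17* and *Pcdhac2*, in UTRs at *Cdh2*, *Cdh3* and *Cdh7*, in an exon at *Cdh23* and in introns at *Cdh11*, *Pcdh1* and *Pcdhgb7*. Non-clustered *Eed+/+* summits lay in coding sequence at *Pcdh7*, *Pcdh8* and *Pcdh10*, in UTRs at *Cdh2*, *Cdh23*, *Pcdh17* and *Pcdh19*, in introns at *Cdh4*, *Cdh6*, *Cdh8*, *Cdh13*, *Cdh22* and *Pcdh1*, and outside genes at *Cdh11*. The GENCODE annotation of mm9 holds only some of the variable exons, so distances of clustered peaks to annotated starts are overstated, which does not touch those to RefSeq starts.

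Relatives and partners of these genes were taken from a list of 38 genes for atypical and desmosomal cadherins, calsyntenins, catenins and the like. Of these, 6 had a peak in *Eed-/-* cells and 10 in *Eed+/+* cells, 5 of them in both, against 11 and 24 of the 93 family members and 7.1% and 8.55% of all protein-coding genes. Peaks in both lists lay at *Fat4* (an atypical cadherin that binds *Dchs1*), at *Celsr2* and *Celsr3* (cadherins of planar polarity and axon guidance), and at the calsyntenins *Clstn1* and *Clstn2*. Their level ratios were 0.162 at *Fat4* and 0.236 at *Clstn2*, inside the range of the 9 sites above, but 0.343 at *Celsr2*, 0.467 at *Clstn1* and 0.501 at *Celsr3*. *Pkp4*, a plakophilin, had a peak in *Eed-/-* cells only (139 tags, fold enrichment 2.89). In *Eed+/+* cells only, peaks were assigned to *Celsr1*, *Ret* (a receptor kinase with cadherin-like domains), *Pkp1*, *Fat3* and *Ctnnd2*, a catenin of neurons. The summit of the *Fat3* peak (fold enrichment 32.3) was at -123331 bp from the RefSeq start, outside the gene as annotated here. Of the 2 *Ctnnd2* peaks, 1 had its summit 507 bp and 1 had it 474548 bp downstream of the start. *Ctnnb1* (beta-catenin), *Ctnna1* and *Jup*, which link classical or desmosomal cadherins to the cytoskeleton, had no peak in either genotype.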

How the data were processed

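The analysis started from the 2 RING1B peak lists that the authors deposited, 1 per genotype. With bowtie the authors aligned tags to mm9, discarding those without a unique position. They called peaks with MACS (FDR below 2%, over 100 tags) on the pooled lanes of a genotype, and assigned the nearest gene with CisGenome and custom scripts. Neither tool versions nor the control library for MACS are stated in the sources used here. The deposited attributes used were whole tag counts, the ratio of enrichment over background (fold enrichment), the summit, the FDR as a percent, and the nearest RefSeq gene with its distance. The authors' own overlap flags and p-value score were not used.

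Tags per kb of peak were scaled to the mapped tags stated in the methods, without subtraction of input. A pair was an *Eed+/+* peak and the *Eed-/-* peak sharing most bases with it (at least 1 bp). Shares carry exact (Clopper-Pearson) 95% intervals. RefSeq starts were derived from the deposited distances. NCBIM37 with GENCODE vM1, which is mm9, gave sequence, start sites and the share of unique 32-base windows, and RefSeq names (GRCm38) gave the family, its order and the share of all genes with a peak, for which 17 *Eed-/-* and 23 *Eed+/+* gene names found no match. All 4157 peaks lay inside the chromosomes of that assembly.

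All genes with a peak are named. Full values are given for *Eed-/-* peaks, their counterparts, and the 6 *Eed+/+* peaks of highest fold enrichment without one. The genes and lists were chosen with earlier results of these data known. Genes singled out in single measures (*Cdh2*, *Cdh11*, *Pcdh17*) were chosen after their values were seen. The overlap code, tested on simulated lists, recovered 1000 of 1000 planted overlaps. The sequence around the *Cdh11* summits is not reported here. Scripts ran in Python 3.11.15 with scipy 1.17.1, numpy 2.4.6 and matplotlib 3.10.9.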

Additional observations from a re-analysis of the deposited data

How the results depend on the processing

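Of 21 alternatives run on 9 values, 16 stayed within the exact interval of the value (for medians, the interval from order statistics) or within 1.5 times a count, and 5 did not. The intervals are wide at 11 and 24 peaks, so staying within one is a weak criterion. The share of *Eed+/+* peaks within 1 kb of a start site went from 79.2% by edge to 58.3% by centre and still counted as within. For *Eed-/-* peaks it went from 81.8% to 63.6%. When both lists were limited to an FDR of 1%, 100% of the *Eed-/-* peaks (4 of 4, 85.8% of all such peaks) and 16.7% of the *Eed+/+* peaks (4 of 24, 15.4% of all) were overlapped, a filter that leaves 4 of the 11 *Eed-/-* peaks. The median level ratio of 0.197 became 1.39 when scaled to the tags in all peaks, 0.149 as a ratio of fold enrichments (0.248 over all pairs), and 0.145 with the tags of each peak spread over the union of its pair, an alternative chosen after seeing the data. Leaving out chromosome 18, also chosen after seeing the data, gave 0.186. Naming peaks by the nearest annotated start site removed *Pcdh19*, *Pcdhga11* and *Pcdhga12* from the *Eed+/+* list and added a peak at *Zwint* to both, which gave overlaps of 83.3% in *Eed-/-* and 45.5% in *Eed+/+* cells. No paired analysis was possible because each genotype has 1 peak list with its lanes pooled, and no replicate could be left out. A minimum of 100 tags at unequal depth limits what either list can show.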
